A study of Homo sapiens with 4 samples.

Results

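The ATF4 and amino acid stress genes are 44 human genes taken as a list of names, from the transcription factor ATF4 and its partner factors to the amino acid transporters, biosynthetic enzymes and aminoacyl-tRNA synthetases that it is known to regulate. All 44 had a probe on the array, among 19483 genes that could be paired with a probe. The list is defined by gene names and not by a threshold on these arrays. It was, however, chosen with earlier results of these data known. When amino acids run short or proteins misfold, kinases phosphorylate the initiation factor eIF2, translation slows, and the ATF4 mRNA is translated more efficiently. ATF4 protein then binds C/EBP-ATF response elements together with C/EBP-family partners and raises the transcription of genes for amino acid uptake, amino acid synthesis and tRNA charging, and under lasting stress of cell death genes such as DDIT3 and TRIB3. In cancer cells these genes are known for supplying serine, glycine, asparagine, cystine and glutathione.

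The arrays came from LNCaP, an established human prostate cancer cell line. TR9_MeTA14 and TR15_MeTA5 are stable lines made in sequence from LNCaP cells, first with a Tet repressor (TR9 and TR15) and then with a tetracycline-inducible NFkB (AD)-MBD, a FLAG-tagged fusion of the NFkB activation domain with a methyl-CpG-binding domain. This fusion serves for methyl-CpG-targeted transcriptional activation (MeTA), in which promoters with methylated CpG sites are switched on. Each line was cultured without tetracycline (-Tet) and with tetracycline for 4 days (+Tet), and total RNA of each of the 4 conditions was hybridised to 1 single-colour Agilent whole human genome array, all on 1 slide. No array without the fusion gene was included here, so tetracycline itself and the induced fusion cannot be told apart.

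Signals were scaled to the 75th percentile of each array, so a scaled signal of 1 is that percentile. The percentile itself ran from 367 to 777 units, and from 60.3% to 71.0% of probes were well above background. Replicate spots of 1 probe gave a log2 ratio between arrays an SD of 0.0883, which covers spot-to-spot scatter only and leaves out the spread between cultures. With 1 array per condition, no difference within a line has a replicate check. In RNA of whole cultures, fewer cells with a transcript and less of it in each cell cannot be told apart. The 7 prostate luminal markers examined, KLK3 and HOXB13 among them, were well above background on all 4 arrays, and the basal markers TP63 and KRT5 on none. The scaled signals of the luminal markers summed to 411 without and 123 with tetracycline for TR9_MeTA14, and to 538 without and 337 with it for TR15_MeTA5. Of 7 markers of other cell types, 3 or 4 were well above background on each array, with sums from 0.503 to 0.996.

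In TR9_MeTA14 cells most of the amino acid stress genes were lower with tetracycline. At least 2-fold lower were 34 of 44, against 15.1% of the 15074 genes compared, and 1 of 44 was at least 2-fold higher, against 16.8%. The median log2 fold change was -1.94 for the 44 genes and -0.06 for all genes. In TR15_MeTA5 cells the differences were smaller, with a median of -0.54 against -0.16 for all genes. At least 2-fold lower in TR15_MeTA5 were 8 of 43, against 2.21%, and 1 of 43 was at least 2-fold higher, against 9.78%. The 8 were TRIB3, SLC7A11, PHGDH, PCK2, STC2, SLC38A2, MTHFD2 and PSAT1. All 8 were also among the 34 of TR9_MeTA14, so that 8 of 43 passed 2-fold in both lines, against 0.838% of 13969 genes. CHAC1 fell just outside, at a log2 fold change of -0.998 in TR15_MeTA5. The count in TR15_MeTA5 depended on the scaling. On the spike-in controls it was 1, TRIB3, and after normexp background correction and quantile normalization it was 2, TRIB3 and SLC7A11.

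**Figure D1:**
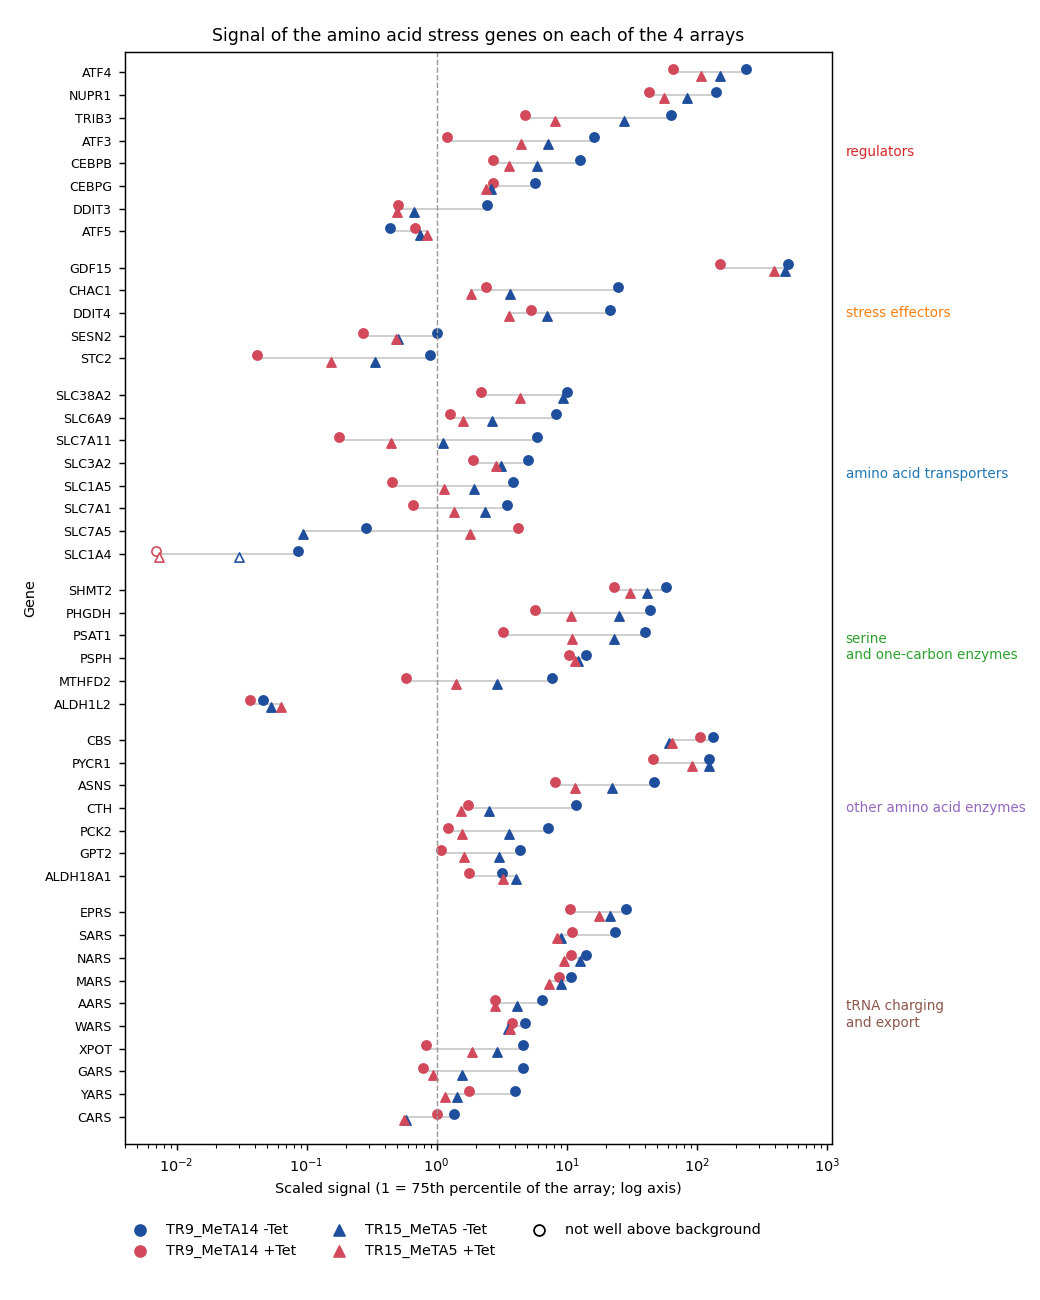
Scaled signal of each of the 44 genes on the 4 arrays (x axis, log scale, 1 is the 75th percentile of the array), ordered by role. Circles are TR9_MeTA14 and triangles TR15_MeTA5, blue without and red with tetracycline, 1 array each, and open symbols were not well above background; TR9_MeTA14 -Tet was the highest array for 39 of the 43 genes measured on all 4.

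A decrease of any size in both lines was found for 38 of 43 genes, against 47.4% of all genes, but in TR15_MeTA5 the sign of small values turned with the scaling for CEBPG, SESN2, SLC3A2, PSPH, ALDH1L2, ALDH18A1, SARS, EPRS, MARS, CARS, YARS and GDF15. In TR15_MeTA5, 32 of 43 genes lay below the median of all genes. That median moved from -0.16 to 0.21 on the spike-in controls. Both scalings subtract 1 value per array, so the count is the same under them by construction. After quantile normalization it was 28 of 43. The decrease was larger in TR9_MeTA14 than in TR15_MeTA5 for 40 of 43 genes, a pattern shown by 42.1% of all genes, and this difference between the lines was not tested. Of the luminal markers, 6 of 7 were at least 2-fold lower in TR9_MeTA14, against 15.1% of all genes, and 0 of 7 in TR15_MeTA5, against 2.21%. KLK2, for example, had log2 fold changes of -4.00 and -0.98, and KLK3 of -1.95 and -0.70. The part of such broader changes in the values of the amino acid stress genes was not tested.

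Bright and dim genes were also compared apart. For genes with a mean scaled signal at or above the 75th percentile, the median log2 fold change in TR9_MeTA14 was -2.01 for 35 amino acid stress genes and -0.19 for 6577 genes in all. In TR15_MeTA5 the corresponding medians were -0.64 and -0.22. Among dimmer genes the medians in TR9_MeTA14 were -1.88 for 9 amino acid stress genes and 0.04 for all. In TR15_MeTA5 they were -0.04 for 8 and -0.09 for all, so no lower median was seen there. Of those 8 genes, 2 were still at least 2-fold lower, against 3.12% of 7759 dimmer genes. The number at least 2-fold higher was 1 of 8, against 13.8%.

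**Figure D2:**
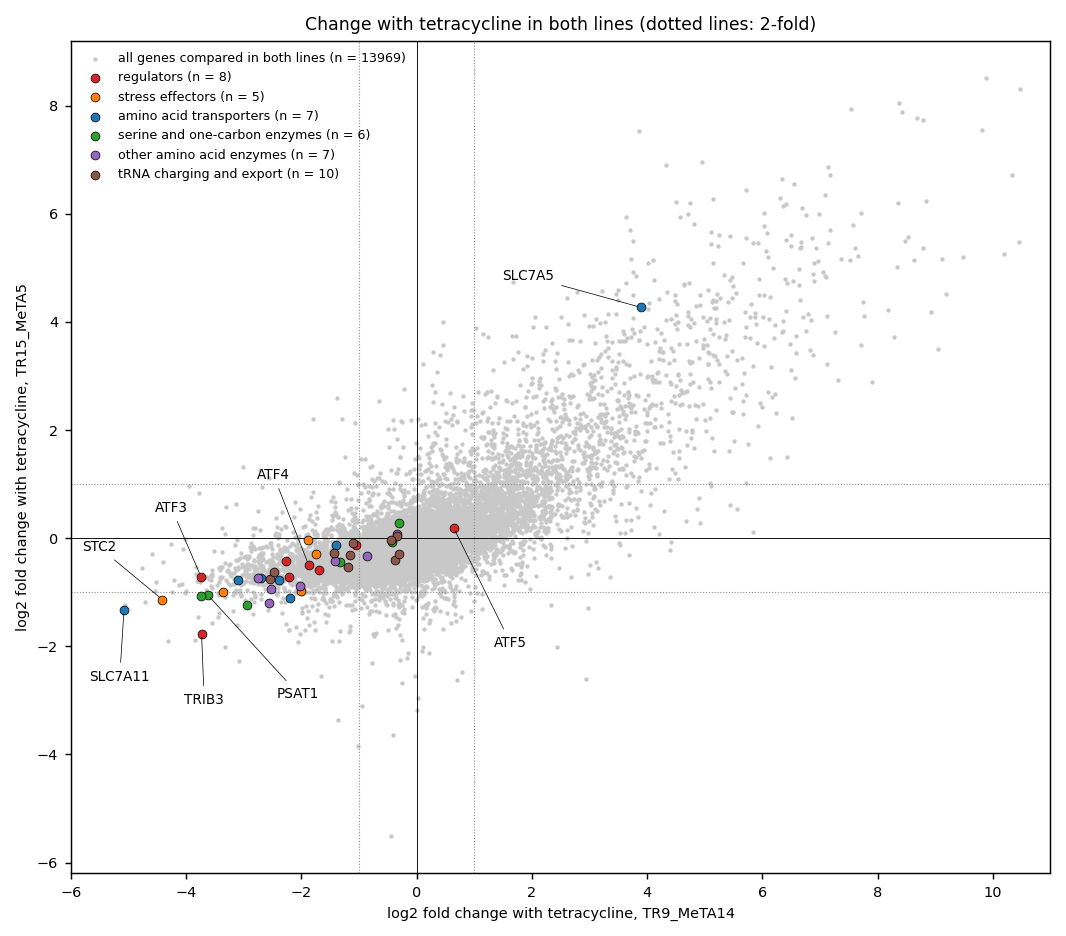
Log2 fold change with tetracycline in TR9_MeTA14 (x axis) and TR15_MeTA5 (y axis), with 13969 genes compared in both lines in grey and 43 amino acid stress genes coloured by role. Most coloured points lie left of the dotted 2-fold line for TR9_MeTA14 and between the dotted lines for TR15_MeTA5, with SLC7A5 alone among them at the upper right.

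When the lines were used as replicates of the treatment in limma (additive model of line and tetracycline, 1 residual degree of freedom, Benjamini-Hochberg adjustment over all probes tested), SLC7A5 was the only called gene of the list. The number called lower by it was 0 of 43, against 0.0138% of 14458 genes. The number called higher was 1 of 43, against 3.22%. When differences of known size were put into simulated data, only 6% of those set at 4-fold were called. Of those set at 16-fold, 60% were called. A count of 0 in limma therefore does not show that no gene of the list was lower. At an unadjusted p below 0.05, 22 of 43 were lower, against 8.33%, and 1 of 43 higher, against 13.2%. On the spike-in controls the number lower was 13 of 43, where the share of all genes was not counted. The smallest adjusted p among the lower genes was that of TRIB3, 0.108, at a log2 fold change of -2.75 ± 0.54 (SE, 4 arrays).

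Because ATF4 works through a short DNA element, the RefSeq promoter windows (build GRCh38.p14, 250 bases before to 50 after the annotated start) were searched for the C/EBP-ATF response element TGATGNAAN on both strands. A window was at hand for 36 of the 44 genes, and 13 of them, 36.1%, held the element, against 3.63% of 15176 genes with a probe and a window. The core TGATG alone, which every element contains, was in 41.7% against 32.3%. The median number of CG dinucleotides was 29 against 25. A match describes the letters in the window and does not show binding. The list was drawn from genes that ATF4 is known to regulate, so the higher share is not an independent result. The element lay wholly upstream of the start in 7 genes. These are printed 5′ to 3′ on the strand that reads the element, with the element in capitals. They were picked for holding it, so their sharing it is not a result.
ASNS, 68 bases before the start, chr7:97872460-97872484, minus strand: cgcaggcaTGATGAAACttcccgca
ATF3, 191 bases before the start, chr1:212565208-212565232, plus strand: ggtcaggaTGATGGAAGgctgtcat
CHAC1, 210 bases before the start, chr15:40953253-40953277, minus strand: ggcaggagTGATGCAACggcagggg
CEBPG, 42 bases before the start, chr19:33374063-33374087, plus strand: gcggcgtcTGATGCAACctgccggc
SLC1A5, 97 bases before the start, chr19:46784895-46784919, minus strand: gaagtggcTGATGCAAGctgtccag
AARS, 188 bases before the start, chr16:70289678-70289702, plus strand: aacttggcTGATGCAACtgcgagaa
GARS, 34 bases before the start, chr7:30594836-30594860, minus strand: tcggagcaTGATGAAATcgccgcgt

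In CHAC1, CEBPG and AARS the element had the same 9 letters. In TR9_MeTA14 these 7 genes had log2 fold changes from -3.74 for ATF3 to -1.06 for CEBPG, and CEBPG came to -0.95 on the spike-in controls, short of 2-fold. Of all 44 genes, 34 passed 2-fold in that line. In SLC1A4, MARS and CARS the element reached past the start, and in SLC3A2, SLC7A1 and NARS it lay after the start. The log2 fold changes of all these genes in TR9_MeTA14 ran from -2.38 for SLC7A1 to -0.31 for MARS. Genes without the element in the window included TRIB3, PSAT1 and MTHFD2, each over 10-fold lower in that line.

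Among the regulators, 7 of 8 were at least 2-fold lower in TR9_MeTA14 and 1 of 8 in TR15_MeTA5, with medians of -2.05 and -0.54. For this group and those that follow, the shares of all genes were 15.1% and 2.21%. ATF4 itself gave a scaled signal of 242 without tetracycline and 66.0 with it for TR9_MeTA14, and for TR15_MeTA5 of 153 without and 108 with it. At this scaling the uninduced TR9_MeTA14 array was the highest and its induced array the lowest. The unscaled +Tet signals were 51220 for TR9_MeTA14 and 58570 for TR15_MeTA5, with median spike-in signals of 4440 and 5300. Which array was lowest for ATF4 thus depends on the scaling. Its mRNA was thus 3.67-fold lower in TR9_MeTA14 and 1.41-fold lower in TR15_MeTA5 (limma log2 fold change -1.19 ± 0.44, adjusted p = 0.257), while the protein, whose translation is the regulated step, was not measured here. Under quantile normalization ATF4 came to log2 fold changes of -1.23 and -0.13, and with normexp correction before it to -1.09 and -0.04. ATF5, a related factor whose mRNA is controlled by eIF2 in a similar way, was the exception in this group. From here on the signals without and with tetracycline are given in that order. For ATF5 they were 0.438 and 0.684 (TR9_MeTA14) and 0.744 and 0.849 (TR15_MeTA5), or 1.56-fold and 1.14-fold higher (adjusted p = 0.436).

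ATF3, a stress-induced factor and ATF4 target, had 16.2 and 1.21 (TR9_MeTA14) and 7.24 and 4.42 (TR15_MeTA5). That was 13.4-fold and 1.64-fold lower, with both induced arrays below both uninduced ones. Of its 4 probes, 3 were lower in both lines, and the probe A_33_P3214096, which targets the same gene, had log2 fold changes of 0.11 and 0.17. The mean over the probes was -2.48 in TR9_MeTA14. TRIB3, a pseudokinase that dampens ATF4 and AKT signalling, had 63.4 and 4.77 (TR9_MeTA14) and 27.5 and 8.11 (TR15_MeTA5), or 13.3-fold and 3.40-fold lower. It had the largest decrease of the 43 genes in TR15_MeTA5.

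DDIT3, which encodes the cell death factor CHOP, was at 2.44 in TR9_MeTA14 -Tet and between 0.498 and 0.666 on the other 3 arrays. Its +Tet signals were 0.507 in TR9_MeTA14 and 0.498 in TR15_MeTA5, so at this scaling the lines differed mainly without tetracycline. CEBPB, a dimerisation partner of ATF4, had 12.7 and 2.72 (TR9_MeTA14) and 5.92 and 3.61 (TR15_MeTA5). CEBPG, another partner, had 5.68 and 2.73 in TR9_MeTA14 but 2.64 and 2.41 in TR15_MeTA5, where the log2 fold change, -0.13, was below 0.177 (2 SDs from replicate spots) in size and its sign turned on the spike-in controls. NUPR1, a stress-induced chromatin protein, had log2 fold changes of -1.69 and -0.59.

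The stress effectors were lower as well, 5 of 5 by at least 2-fold in TR9_MeTA14 and 1 of 5 in TR15_MeTA5. CHAC1, which breaks down glutathione, had scaled signals of 24.8 and 2.42 (TR9_MeTA14) and 3.65 and 1.83 (TR15_MeTA5). TR9_MeTA14 -Tet stood 6.79-fold above TR15_MeTA5 -Tet, and the +Tet arrays lay closer together. Its dimmer second probe was also lower in TR9_MeTA14, at -3.27, but was at 0.26 in TR15_MeTA5, where the mean of both probes was -0.37. STC2, a secreted glycoprotein, had 0.886 and 0.0416 (TR9_MeTA14) and 0.336 and 0.153 (TR15_MeTA5), or 21.3-fold and 2.20-fold lower. After normexp correction and quantile normalization its log2 fold changes shrank from -4.41 and -1.14 to -2.52 and -0.86. DDIT4, an inhibitor of mTORC1, was 4.02-fold and 1.97-fold lower. SESN2, which senses leucine upstream of mTORC1, was 3.68-fold lower in TR9_MeTA14 and differed by a log2 value of -0.04 in TR15_MeTA5, where the sign turned with the scaling. GDF15, a secreted stress hormone, had 503 and 150.3 for TR9_MeTA14 against 481 and 392 for TR15_MeTA5, where its sign also turned with the scaling. In TR9_MeTA14 its log2 fold change was -1.74, or -1.05 after normexp correction and quantile normalization.

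Amino acid transporters held both the largest decrease and the largest increase of the list. SLC7A11, the cystine-glutamate exchanger that supplies cysteine for glutathione, had 5.97 and 0.177 as scaled signals for TR9_MeTA14, and 1.13 and 0.448 for TR15_MeTA5. It was 33.8-fold lower in TR9_MeTA14, where 0 of the 15074 genes compared had a larger decrease at this scaling, and 2.52-fold lower in TR15_MeTA5. After normexp correction and quantile normalization its value in TR9_MeTA14 was -4.36 in place of -5.08 on the log2 scale. The adjusted p over both lines was 0.215 in limma. SLC38A2, a sodium-coupled neutral amino acid transporter, had 10.1 and 2.21 (TR9_MeTA14) and 9.38 and 4.37 (TR15_MeTA5), and its second probe gave similar log2 fold changes of -1.97 and -1.07. At this scaling the -Tet signals of its brightest probe were nearly equal in the lines. Those of the second probe were 5.19 in TR9_MeTA14 and 7.31 in TR15_MeTA5.

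SLC7A5, the light chain of the leucine transporter LAT1, was higher with tetracycline. Its scaled signal was 0.284 without tetracycline and 4.21 with it for TR9_MeTA14, and for TR15_MeTA5 0.0945 without and 1.82 with it. Both +Tet arrays lay above both -Tet arrays, with increases of 14.8-fold and 19.3-fold (limma log2 fold change 4.08 ± 0.27, adjusted p = 0.0153). The adjusted p ran from 0.00108 to 0.0504 over the alternatives, the highest in the fit without the line as a block. With normexp correction and quantile normalization the log2 fold changes were 3.40 and 3.10 in place of 3.89 and 4.27, and the line with the larger increase was then TR9_MeTA14. Larger increases were seen for 381 genes in TR9_MeTA14 and 136 in TR15_MeTA5. SLC7A5 has pseudogene copies of similar sequence, and whether its probe also detects them was not checked. SLC3A2, the heavy chain that pairs with SLC7A5 and with SLC7A11, was 2.65-fold lower in TR9_MeTA14, and in TR15_MeTA5 it differed by -0.12, a value whose sign turned with the scaling.

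The remaining transporters were lower in TR9_MeTA14. The glutamine carrier SLC1A5 was 8.56-fold lower there and 1.71-fold lower in TR15_MeTA5. The glycine carrier SLC6A9 was 6.50-fold and 1.67-fold lower, although its dim second probe was at 0.04 on the log2 scale in TR15_MeTA5. The arginine and lysine carrier SLC7A1 was 5.22-fold and 1.71-fold lower. The serine and alanine carrier SLC1A4 was well above background in TR9_MeTA14 -Tet only, at a scaled signal of 0.0852. It was at least 4.75-fold lower in TR9_MeTA14 +Tet, where the dim array is set at the lowest signal among probes well above background, and it could not be compared in TR15_MeTA5. After normexp correction and quantile normalization its log2 fold change was -0.83, short of 2-fold.

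Serine is made from a glycolytic intermediate by PHGDH, PSAT1 and PSPH, and SHMT2 and MTHFD2 then pass its carbon into the mitochondrial folate pathway. The size of the difference varied between these steps. PHGDH had scaled signals of 44.1 and 5.73 (TR9_MeTA14) and 25.3 and 10.7 (TR15_MeTA5), or 7.69-fold and 2.36-fold lower. PSAT1 had 39.9 and 3.24, and 23.0 and 11.1, or 12.3-fold and 2.08-fold lower. PSPH, the last step of serine synthesis, was 1.34-fold lower in TR9_MeTA14 and at -0.07 on the log2 scale in TR15_MeTA5, where the sign turned with the scaling.

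MTHFD2 had 7.69 and 0.577 (TR9_MeTA14) and 2.93 and 1.40 (TR15_MeTA5), or 13.3-fold and 2.09-fold lower. SHMT2 was 2.51-fold and 1.36-fold lower. ALDH1L2, which makes NADPH from mitochondrial formyl folate, was dim, with 0.0459 and 0.0370 (TR9_MeTA14) and 0.0529 and 0.0640 (TR15_MeTA5). Its log2 fold changes, -0.31 and 0.28, were opposite in sign, and that of TR15_MeTA5 came to -0.002 under one of the scalings.

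Of the other amino acid enzymes, 5 of 7 were at least 2-fold lower in TR9_MeTA14 and 1 of 7 in TR15_MeTA5. ASNS, asparagine synthetase and the classic reporter of the amino acid response, had scaled signals of 46.7 and 8.10 (TR9_MeTA14) and 22.5 and 11.7 (TR15_MeTA5), or 5.77-fold and 1.93-fold lower (adjusted p = 0.191). PCK2, the mitochondrial enzyme that makes phosphoenolpyruvate, had 7.23 and 1.23 and then 3.61 and 1.57, or 5.87-fold and 2.31-fold lower. Its dimmer second probe gave log2 fold changes of -1.16 and -0.53, the latter short of 2-fold. CTH, which makes cysteine from cystathionine, was 6.78-fold and 1.66-fold lower, while CBS, the step before it, was at -0.34 and 0.08 on the log2 scale, a sign that turned with the scaling in TR9_MeTA14. A near-identical copy of CBS is annotated, and the probe may detect both. GPT2, the mitochondrial alanine transaminase, was 4.06-fold and 1.84-fold lower. In proline synthesis PYCR1 was 2.68-fold and 1.34-fold lower. ALDH18A1, the enzyme before it, was 1.82-fold lower in TR9_MeTA14 and at -0.33 in TR15_MeTA5, where the sign turned on the spike-in controls.

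The tRNA group, 9 aminoacyl-tRNA synthetases and the tRNA export receptor XPOT, differed least, with medians of -1.13 for TR9_MeTA14 and -0.30 in TR15_MeTA5. At least 2-fold lower in TR9_MeTA14 were 6 of 10, and in TR15_MeTA5 0 of 10. GARS, which charges glycine tRNA, was 5.86-fold and 1.69-fold lower, and XPOT was 5.57-fold and 1.55-fold lower. EPRS, YARS, AARS and SARS had log2 fold changes from -1.44 to -1.10 in TR9_MeTA14. CARS, NARS, WARS and MARS lay between -0.44 and -0.31 there, and in TR15_MeTA5 between -0.41 and 0.04. The annotation now writes these symbols with a 1 at the end, as AARS1.

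Related genes outside the list were compared in the same way. Of all genes, 15.1% were at least 2-fold lower and 16.8% at least 2-fold higher in TR9_MeTA14. The 11 remaining cytosolic synthetases had medians of -1.20 and -0.40, and 7 of 11 were at least 2-fold lower in TR9_MeTA14, with LARS at -1.86 and -0.996 and IARS at -2.03 and -0.18. Of the 17 mitochondrial synthetases 1, MARS2 at -1.71, passed 2-fold in TR9_MeTA14, and their medians were -0.41 and -0.24. Enzymes of the folate and methionine cycles that are not on the list had medians of -1.32 and -0.51, and 8 of 14 were at least 2-fold lower in TR9_MeTA14. MTHFD1L, the mitochondrial partner of MTHFD2, was at -3.15 and -0.75, and TYMS, thymidylate synthase, at -2.76 and -0.57. The 1 gene of this group at least 2-fold higher in TR9_MeTA14 was GLDC, of the glycine cleavage system, at 1.13 and 0.97, which was picked out after its values were seen.

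The eIF2 signalling genes, which act before ATF4, had medians of -0.74 and -0.35. In TR9_MeTA14 4 of 15 were at least 2-fold lower (EIF2S2, EIF2S1, EIF2AK4 and PPP1R15B), against 15.1% of all genes. The kinase genes EIF2AK3 (PERK) and EIF2AK4 (GCN2) were at -0.81 and -1.01 for TR9_MeTA14, and at -0.45 and -0.42 for TR15_MeTA5. PPP1R15A, the stress-induced phosphatase subunit GADD34 that reverses eIF2 phosphorylation and is itself an ATF4 pathway target, was at 0.83 and 1.12 (limma adjusted p = 0.204). Genes for chaperones of the endoplasmic reticulum and the unfolded protein response had medians of -0.24 and -0.16, near those of all genes. In TR9_MeTA14 3 of 21 were at least 2-fold lower (EDEM1, XBP1 and HERPUD1), against 15.1% of all genes. The number at least 2-fold higher there was 2 of 21, against 16.8%. HSPA5, the chaperone BiP, was at 1.41 and 1.48 (adjusted p = 0.0813) and CRELD2 at 2.02 and 1.11, whereas XBP1 was at -1.35 and -0.59.

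**Figure D3:**
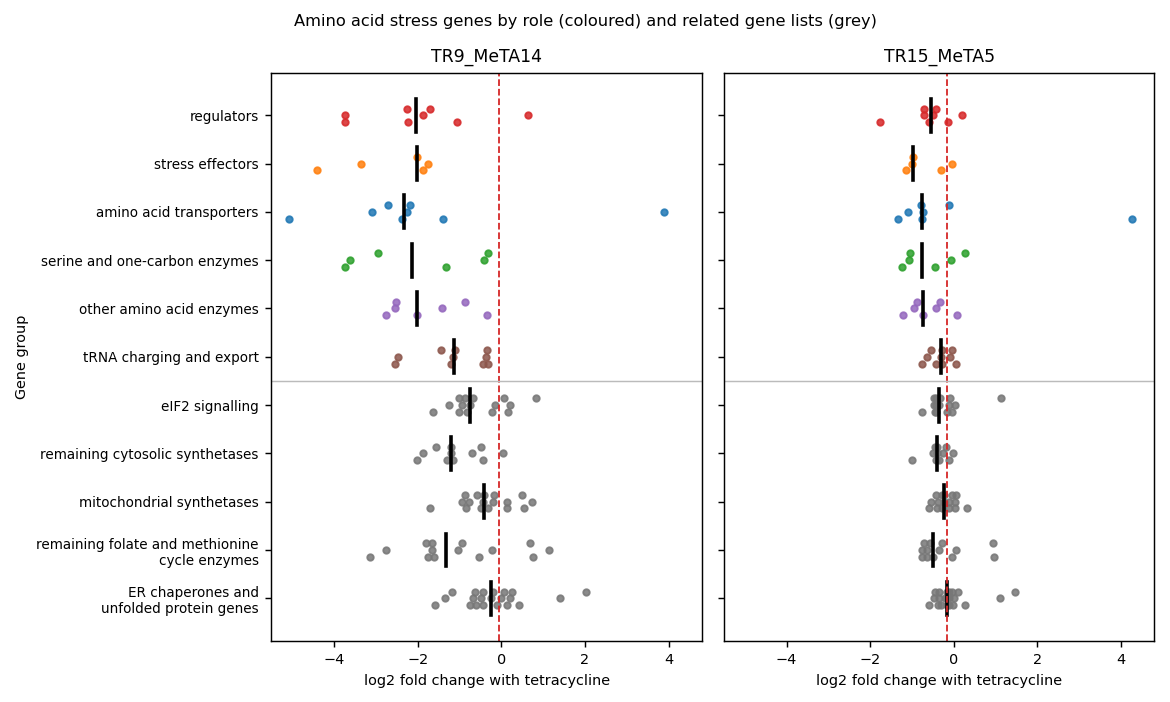
Log2 fold change with tetracycline (x axis) of each gene in TR9_MeTA14 (left) and TR15_MeTA5 (right), by role for the amino acid stress genes (coloured) and for related lists (grey). Black bars are medians, the dashed red line is the median of all genes, and the point of SLC1A4 in TR9_MeTA14 is a bound; the group medians of TR15_MeTA5 lie between -0.98 and -0.16, nearer to the line than those of TR9_MeTA14.

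The lines also differed before induction. Without tetracycline, TR15_MeTA5 had a signal at least 2-fold below that of TR9_MeTA14 for 22 of 44 genes, against 5.19% of all genes, and 0 of 44 were at least 2-fold higher, against 8.17%. The TR9_MeTA14 -Tet array enters both this comparison and that of tetracycline in its line, so a high signal on it would show in both. CHAC1 differed most, at 6.79-fold, followed by SLC7A11 at 5.28-fold, CTH at 4.66-fold and DDIT3 at 3.67-fold. PYCR1 and SLC38A2, by contrast, were alike in the uninduced lines at this scaling, with scaled signals of 124 and 123.5 for PYCR1. The second SLC38A2 probe was higher in TR15_MeTA5 -Tet, at 7.31 against 5.19 in TR9_MeTA14 -Tet.

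With tetracycline several genes were higher in TR15_MeTA5, at a share not far from that of all genes. At least 2-fold higher in TR15_MeTA5 +Tet than in TR9_MeTA14 +Tet were 9 of 43, against 14.2% of all genes, and 1 of 43 was at least 2-fold lower, against 10.4%. The 9 were STC2, ATF3, PSAT1, GDF15, SLC7A11, SLC1A5, MTHFD2, XPOT and SLC7A1, with STC2 at 3.68-fold, and the lower one was SLC7A5. For TR9_MeTA14 +Tet and TR15_MeTA5 +Tet the 75th percentile was 777 and 542 units, but the median spike-in signal was 4440 and 5300. On the spike-in controls TR15_MeTA5 would thus stand lower against TR9_MeTA14, and these counts were not formed there. The limma difference between the lines averages the -Tet and the +Tet arrays, so differences of opposite sign cancel in it. At the 75th percentile scaling the list's median log2 ratios of TR15_MeTA5 to TR9_MeTA14 were -0.999 without and 0.407 with tetracycline. In limma 5 of 43 differed between the lines at an unadjusted p below 0.05, against 16.0% of all genes. They were SLC7A5, CARS, YARS, DDIT4 and CBS. On the spike-in controls the number was 18 of 43, but the share of all genes was not counted there, so the rise is not particular to the list. After adjustment the number was 0 of 43, and 0 of all 14458 genes.

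Across the 43 genes measured on all arrays, TR9_MeTA14 -Tet was the highest array in 39, against 25.0% of 12698 genes, and TR9_MeTA14 +Tet the lowest in 29, against 42.2%. The full order put both TR15_MeTA5 arrays between those of TR9_MeTA14, with the uninduced TR15_MeTA5 array above the induced one. At the 75th percentile scaling it held for 27 of 43 genes, or 62.8%, and for 10.7% of all genes. It was not counted under other scalings. For TR9_MeTA14 -Tet and TR15_MeTA5 -Tet the percentile was 617 and 367 units, but the median spike-in signal was 3803 and 4626. On the spike-in controls TR15_MeTA5 would thus stand lower against TR9_MeTA14, which can change the order.

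**Figure D4:**
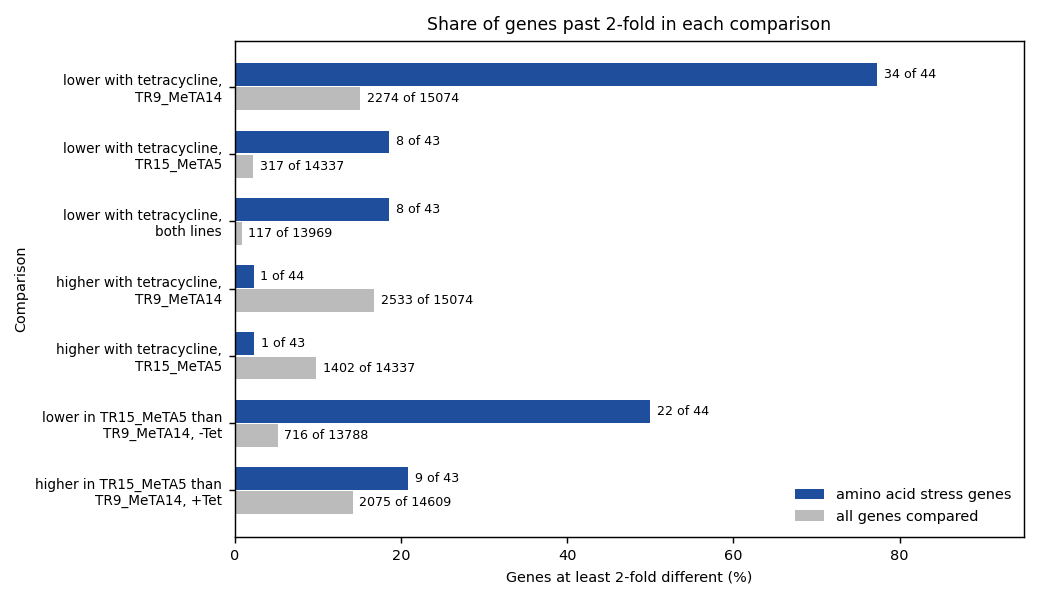
Share of genes at least 2-fold different (x axis, %) in 7 comparisons, for the amino acid stress genes (blue) and all genes compared (grey), with counts beside the bars. The blue bar is longer for genes lower with tetracycline and for genes lower in uninduced TR15_MeTA5, and shorter for genes higher with tetracycline; each bar rests on 1 array per condition.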

How the data were processed

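Cy3-labelled cRNA of 4 samples was hybridised to Agilent 4 × 44K arrays. The authors extracted spot signals with Agilent Feature Extraction (10.7.3.1 in the file headers, 9.5.1 in the submitters' processing notes). The deposited intensity of each spot was background-subtracted and not normalized between arrays, and the deposited series table held identical values. The deposited flags marked outlier spots, left out here (255 to 344 per array), and probes well above background. Probes were named by RefSeq accession (25422 of 34127, 74.49%), and the brightest probe stood for a gene.

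Log2 signals minus each array's 75th percentile were compared at the 2-fold cut-off of the study's methods. Genes had to be well above background on the brighter array, with the dimmer array set at a bound. limma 3.58.1 (R 4.3.3) tested the 22808 probes that passed the background flag on 2 or more arrays, after a check on simulated data. The members, their roles and the related lists were chosen with earlier results of these data known. Values on every array were given for 9 members fixed by name (ATF4, ATF5, ATF3, CEBPB, CEBPG, DDIT3, TRIB3, ASNS, CHAC1), for members past 2-fold in both lines and for those of opposite sign, and of each related list up to 4 genes with large changes were named. Each p-value sets a difference against the disagreement between the lines in their change with tetracycline, with variances shared across probes. It does not measure the spread between replicate cultures, and its precision is limited by the number of arrays. Alternatives covered scaling, background correction, filters, probes, cut-off and the model. 1 marker gene is not reported here.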

Additional observations from a re-analysis of the deposited data

Results flagged for a closer look

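ALDH1L2 was picked out because its change with tetracycline had opposite signs in the lines, each larger than the scatter of replicate spots. The log2 fold change was -0.308 in TR9_MeTA14 and 0.277 in TR15_MeTA5. The difference between the lines was not tested, and the gene was dim on all 4 arrays.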

How the results depend on the processing

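Scaling on the spike-in controls left 1 gene (TRIB3) at least 2-fold lower in TR15_MeTA5 and 1 in both lines, with medians of -1.836 in TR9_MeTA14 and -0.174 in TR15_MeTA5, and the median of all genes at 0.046 and 0.208. After normexp correction and quantile normalization the counts were 2 and 2 (TRIB3 and SLC7A11), with medians of -1.508 and -0.363. The mean over probes gave a TR15_MeTA5 median of -0.446. A 3-fold cut-off left 1 gene in TR15_MeTA5 and 1 in both lines (TRIB3), and a 1.5-fold cut-off gave 21 and 21, with 2 genes higher in TR9_MeTA14 (SLC7A5 and ATF5). limma without a filter called 4 genes lower (TRIB3, SLC1A4, SLC38A2 and PCK2), and without the line as a block it called 0 higher (SLC7A5 at 0.0504). The cause of these shifts was not tested, and the shares of all genes were not counted for these settings. The count of genes lower in TR9_MeTA14 stayed between 26 and 35 over all these settings, and the members' medians kept their sign. The gap between the members' median and that of all genes ran from -1.88 to -1.43 (TR9_MeTA14) and from -0.41 to -0.25 (TR15_MeTA5). Scalings that subtract 1 value per array, and the cut-off, cannot move this gap. Only quantile normalization, normexp correction, the mean over probes and the filters could change it to any extent. A percentile over spots, chosen after seeing the data, moved no count past 1.5 times. The limma fit pairs the arrays of a line by its block. No paired analysis by replicate number was possible because each group has 1. No array could be left out, since each condition has 1.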
